A study of Rattus norvegicus with 6 samples.

Results

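Of 57 genes best known from neurons, synapses and myelin, 56 were measured in intestinal epithelial cells with and without Suz12, a subunit of the Polycomb complex PRC2. The members were taken as the probe sets (groups of short probes that read 1 transcript) annotated to exactly 1 of the 57 gene symbols, which gave 105 of 31042 probe sets on the array. Nova1, a neuronal splicing factor, had no such probe set here. The cells were IEC-6, a rat line from crypts of the small intestine, grown in medium with 5% fetal bovine serum. ShControl cells carried a lentivirus with a scrambled short hairpin RNA, and ShSuz12 cells carried one directed at Suz12, so both groups went through infection and puromycin selection. RNA came from 3 independent experiments for each group, hybridized to 6 arrays. Each group was 1 selected population of cells, not a clone, and the efficiency of infection before selection was put at 25% in the labels. The hairpin is shown because it is what sets the groups apart.
shRNA target in Suz12: gctgacaatcaaatgaatcat

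Neurons keep a set of proteins that most other cells do without. The Hu, CELF and Rbfox proteins bind neuronal RNAs and guide their splicing and stability, tubulins, microtubule-associated proteins and neurofilaments build the axon, SNARE proteins and synaptotagmins release synaptic vesicles, and granins pack neuropeptides into dense-core granules. In other tissues many of these genes are held silent, among other means by the repressor REST and by PRC2, whose methyltransferase puts the H3K27 methyl mark on chromatin.

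Suz12 itself had log2 values of 8.45 to 8.77 in the ShControl samples and of 5.77 to 5.91 in the ShSuz12 samples (log2 fold change -2.76, standard error 0.09, adjusted p = 2.78e-07 from limma). Arrays of 1 group correlated with each other at 0.997 to 0.998 and those of different groups at 0.979 to 0.980. Of the epithelial markers, Cdh1 and Krt8 were bright in both groups, brighter than 99.3% and 90.2% of probe sets in ShControl cells, while Epcam and Krt18 were brighter than only 5.92% and 8.15%. Fibroblast and smooth muscle markers were present in both groups, and 5 of 13 rose at least 2-fold after depletion, against 3.82% of all genes. Throughout, a log2 value is the level of a probe set after RMA normalization by the authors, a log2 fold change is ShSuz12 minus ShControl, and a gene is represented by its brightest probe set unless another is named. A gene was called when limma gave an adjusted p under 0.05 and a change of at least 2-fold. Since the arrays measured bulk RNA, a smaller share of expressing cells and less RNA in each cell cannot be told apart.

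Most neuronal genes did not reach a 2-fold change after Suz12 depletion. Prph, Rtn1, Eno2 and Dpysl5 rose at least 2-fold and 0 genes fell by as much, so 4 of 56 genes (7.14%) were called higher, against 3.82% of the 14217 genes on the array. For lower genes the share on the array was 0.422%. Elavl2 and Map2 also rose at least 2-fold, but at probe sets dimmer than their brightest one, which brings the count to 6 genes by any probe set, against 4.13% of all genes. That rule favours genes with more probe sets. The members had more per gene, 105 for 56 genes against 20826 for 14217 genes. By probe set, 7 of 105 were called higher, against 3.1% on the array, and 0 lower, against 0.396%. By any probe set 0.535% of all genes were lower. With no fold limit, 15 genes were higher at an adjusted p under 0.05 (26.8%, against 17.1% of all genes), 8 were lower (14.3%, against 23.3%) and 33 did not pass. With the replicate number as a block 5 of these 8 were lower. The median log2 fold change of the 56 genes was 0.05 and that of all genes was -0.05. When each array was set to the same median, these became -0.05 and -0.15, so the median of the members has no settled sign. Of the 52 genes that were not called, 30 had a log2 fold change within 0.2 of zero, as had 8362 of all 14217 genes. For 50 of the 52 the 95% interval of the change lay inside 2-fold in either direction. For Gpm6b and Scg2 the interval reached 2-fold higher. Only 27 of the 56 genes were brighter than 40% of all probe sets on at least 2 of the 3 arrays of either group. The other 29 were dim in both groups.

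The largest change among the members was that of Prph, which encodes peripherin, a type III intermediate filament of peripheral neurons. Its log2 values were 6.77, 6.56 and 6.53 in the ShControl samples and 10.24, 10.28 and 10.39 in the ShSuz12 samples. All ShSuz12 samples lay far above all ShControl samples, and the probe set moved from percentile 55.1 of the array to percentile 93.8, averaged over the samples of a group. Prph rose by 3.68 on the log2 scale, or 12.9-fold (standard error 0.08, adjusted p = 3.22e-08 from limma), and ranked 34 of 14217 genes by log2 fold change. The sequence around its annotated start, from 250 bases before to 50 after, is the first of 4 promoters shown. They were chosen because they span the range of the ratio of observed to expected CpG among the 6 genes with a called probe set. They come from RefSeq on the rat build GRCr8, at chr7:132097039-132097338 on the plus strand for Prph, and capitals mark CpG dinucleotides, of which this one has 13.
Prph: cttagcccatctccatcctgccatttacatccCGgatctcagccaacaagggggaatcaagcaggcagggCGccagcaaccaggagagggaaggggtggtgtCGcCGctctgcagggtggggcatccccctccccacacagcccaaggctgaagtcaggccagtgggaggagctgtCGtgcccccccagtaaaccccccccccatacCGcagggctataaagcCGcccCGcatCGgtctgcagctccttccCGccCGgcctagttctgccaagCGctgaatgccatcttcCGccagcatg

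The other intermediate filament genes did not follow Prph. Nefh, the heavy neurofilament subunit, had log2 values of 4.85, 4.54 and 4.67 in ShControl and of 5.43, 5.44 and 5.14 in ShSuz12 samples. Its groups did not overlap, as was so for 55.7% of all genes, and it rose by 0.65 (standard error 0.11, adjusted p = 0.00201 from limma), which is under 2-fold. The light and medium neurofilament genes Nefl and Nefm had log2 fold changes of -0.07 and 0.05 and did not pass. Ina, which encodes alpha-internexin of the same filaments, had 0.05 at its brightest probe set and rose by 0.27 at the dimmer one (adjusted p = 0.0228 from limma). Nes, the nestin gene of neural progenitors, fell by 0.24 (adjusted p = 0.0227 from limma). This fall was lost with the replicate number as a block (adjusted p = 0.0573 from limma) and with the methods' t-test after adjustment (0.0607). Unadjusted, that t-test kept it. Leaving out ShControl replicate 1 (adjusted p = 0.0522 from limma) or 2 (0.0592), or ShSuz12 replicate 1 (0.0697) or 2 (0.0814), also lost the fall. So of 6 filament genes 1 was called higher, and 2 were higher and 1 lower with no fold limit. The shares of all genes were 3.82%, 17.1% and 23.3% in that order. The median of the filament genes was 0.05, which turned to -0.05 under median subtraction.

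Among RNA-binding proteins, Elavl2 was the gene that moved, and its probe sets disagreed. Elavl2 encodes HuB, a neuronal Hu protein that binds AU-rich RNA, and was among the neuronal genes that the study picked from these same arrays. By semi-quantitative RT-PCR the paper also reports a rise of Elavl2. The dimmest of its 3 probe sets had log2 values of 3.34, 3.26 and 3.44 in ShControl and of 6.68, 6.70 and 6.79 in ShSuz12 samples. The next had 3.51, 3.90 and 3.58 against 6.71, 6.41 and 6.86. They went from percentile 3.32 of the array to 55.5 and from 9.03 to 54.8, with all ShSuz12 samples above all ShControl samples, as was so in either direction for 47.5% of probe sets on the array. The rises were of 3.38, or 10.4-fold (standard error 0.07, adjusted p = 2.26e-08 from limma) and of 3.00 (standard error 0.14, adjusted p = 2.01e-06). At the brightest the values were 5.55, 5.42 and 5.76 in ShControl and 5.80, 5.72 and 5.58 in ShSuz12 samples. There the groups overlapped and the log2 fold change was 0.12 (adjusted p = 0.366 from limma). The Elavl2 promoter, at chr5:111202238-111202537 on the minus strand, has 19 CpG dinucleotides, shown in capitals.
Elavl2: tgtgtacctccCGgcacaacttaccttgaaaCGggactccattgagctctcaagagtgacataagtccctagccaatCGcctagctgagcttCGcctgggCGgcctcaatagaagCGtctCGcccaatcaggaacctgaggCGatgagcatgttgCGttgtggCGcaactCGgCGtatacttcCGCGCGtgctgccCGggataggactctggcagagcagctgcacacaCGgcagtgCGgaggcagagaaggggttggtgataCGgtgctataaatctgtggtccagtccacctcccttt

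Other neuronal RNA-binding genes showed no such change. Elavl3, the gene of HuC, had log2 fold changes of 0.18 (adjusted p = 0.0563 from limma) and 0.01 (adjusted p = 0.873). Elavl4, the gene of HuD, had 0.04 with a 95% interval from -0.13 to 0.21, and the splicing regulator Celf4 had -0.06. Rbfox1, a splicing factor of neurons and muscle, had 6 probe sets with log2 fold changes between -0.12 and 0.12. By brightest probe set 0 of the 5 measured RNA-binding genes passed, and their median of 0.04 became -0.06 under median subtraction.

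In the group of microtubule and growth cone proteins the members moved in both directions. Dpysl5, a collapsin response mediator protein that acts in axon guidance and dendrite growth, had log2 values of 4.43, 4.45 and 4.65 in ShControl and of 5.98, 5.50 and 5.75 in ShSuz12 samples. The groups did not overlap, and Dpysl5 rose by 1.23 (standard error 0.12, adjusted p = 0.000137 from limma). Its relative Dpysl3 had 7.30, 6.72 and 7.32 in ShControl and 6.41, 6.77 and 6.58 in ShSuz12 samples, and here the groups overlapped. Dpysl3 fell by 0.53 (standard error 0.17, adjusted p = 0.0409 from limma). This fall was lost without ShControl replicate 1 (adjusted p = 0.128 from limma) or replicate 3 (0.127), and without ShSuz12 replicate 1 (0.124) or replicate 3 (0.0999). It was also lost with the replicate number as a block (0.0647) and with the methods' t-test, adjusted (0.175) or not (0.0778). The other probe set of Dpysl3 had -0.11.

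Map2, which encodes a microtubule-associated protein of dendrites, was called at the dimmer of its probe sets. There the log2 values were 3.10, 3.07 and 3.24 in ShControl and 4.62, 4.73 and 4.77 in ShSuz12 samples. The ShControl samples lay at percentile 1.10 of the array on average and the ShSuz12 samples at percentile 29.2, so the probe set stayed in the dim part of the array in both groups. It rose by 1.57 (standard error 0.07, adjusted p = 1.46e-06 from limma). The brighter probe set had 4.01, 3.83 and 4.00 against 4.09, 4.11 and 3.98, which overlap, with a log2 fold change of 0.12 (adjusted p = 0.247 from limma). The Map2 promoter, at chr9:75346440-75346739 on the plus strand, holds a single CpG dinucleotide, in capitals.
Map2: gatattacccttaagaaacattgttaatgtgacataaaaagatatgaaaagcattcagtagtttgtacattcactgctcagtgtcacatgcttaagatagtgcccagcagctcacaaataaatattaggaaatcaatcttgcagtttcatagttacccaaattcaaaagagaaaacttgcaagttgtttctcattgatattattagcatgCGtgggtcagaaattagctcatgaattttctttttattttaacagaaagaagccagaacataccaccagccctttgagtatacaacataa

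Mapt, which encodes the axonal protein tau, also differed by probe set. At the dimmest it had log2 values of 4.58, 4.79 and 5.17 in ShControl and of 5.65, 5.77 and 5.56 in ShSuz12 samples. The groups did not overlap there and it rose by 0.81 (standard error 0.14, adjusted p = 0.00254 from limma). At the others the changes were 0.04 and 0.17 (adjusted p = 0.642 and 0.116 from limma). Stmn2, a stathmin that destabilizes microtubules in growth cones, went the other way at both of its probe sets. The brighter had 7.79, 7.95 and 7.74 in ShControl and 7.30, 7.44 and 7.29 in ShSuz12 samples, and the dimmer 5.88, 5.92 and 5.86 against 5.32, 5.26 and 5.29. All ShSuz12 samples were below all ShControl samples. Stmn2 fell by 0.48 (adjusted p = 0.00144 from limma) and by 0.60 (standard error 0.05, adjusted p = 6.51e-05), the largest fall of any of the 105 probe sets and still under 2-fold.

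Stmn3, another stathmin, rose by 0.29 (adjusted p = 0.00293 from limma), and the neuronal tubulin Tubb3 rose by 0.42 (adjusted p = 0.000988) at a probe set whose type can also read related transcripts, with -0.07 at the other. Gap43, a growth cone protein of regenerating axons, and Dcx, a marker of migrating neuroblasts, had log2 fold changes of 0.03 and 0.02, and in ShControl cells were brighter than 14.6% and 14.8% of probe sets. Map1b, a microtubule-associated protein of growing axons, was bright in both groups, at percentile 91.2 of the array, with a change of -0.05 (adjusted p = 0.589 from limma). Stmn4 had 0.13. Of the 11 microtubule and growth cone genes, 1 was called higher, and 3 were higher and 2 lower with no fold limit. The shares of all genes were 3.82%, 17.1% and 23.3% in that order. The median of the 11 was 0.04, or -0.06 under median subtraction.

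Both enzymes that serve as neuronal markers were expressed in ShControl cells, and they moved in opposite directions. Eno2, the neuron-specific enolase of glycolysis, had log2 values of 7.28, 7.16 and 6.90 in ShControl and of 8.68, 8.42 and 8.80 in ShSuz12 samples. The ShSuz12 samples were all higher, and Eno2 rose by 1.52 (standard error 0.12, adjusted p = 4.68e-05 from limma). Uchl1, a ubiquitin hydrolase abundant in neurons and neuroendocrine cells, had 10.89, 10.85 and 10.87 against 10.37, 10.37 and 10.35. The groups did not overlap and Uchl1 fell by 0.51 (standard error 0.05, adjusted p = 0.000123 from limma), while remaining at percentile 94.1 of the array in ShSuz12 cells. The Eno2 promoter, at chr4:159267171-159267470 on the minus strand, is dense in CpG dinucleotides, with 31 in capitals.
Eno2: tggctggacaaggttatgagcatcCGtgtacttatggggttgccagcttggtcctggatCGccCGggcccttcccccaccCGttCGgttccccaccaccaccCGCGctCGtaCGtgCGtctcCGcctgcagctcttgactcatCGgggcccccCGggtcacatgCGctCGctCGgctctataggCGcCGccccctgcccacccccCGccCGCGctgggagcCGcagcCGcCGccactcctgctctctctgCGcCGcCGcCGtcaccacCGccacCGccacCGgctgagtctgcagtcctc

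**Figure D1:**
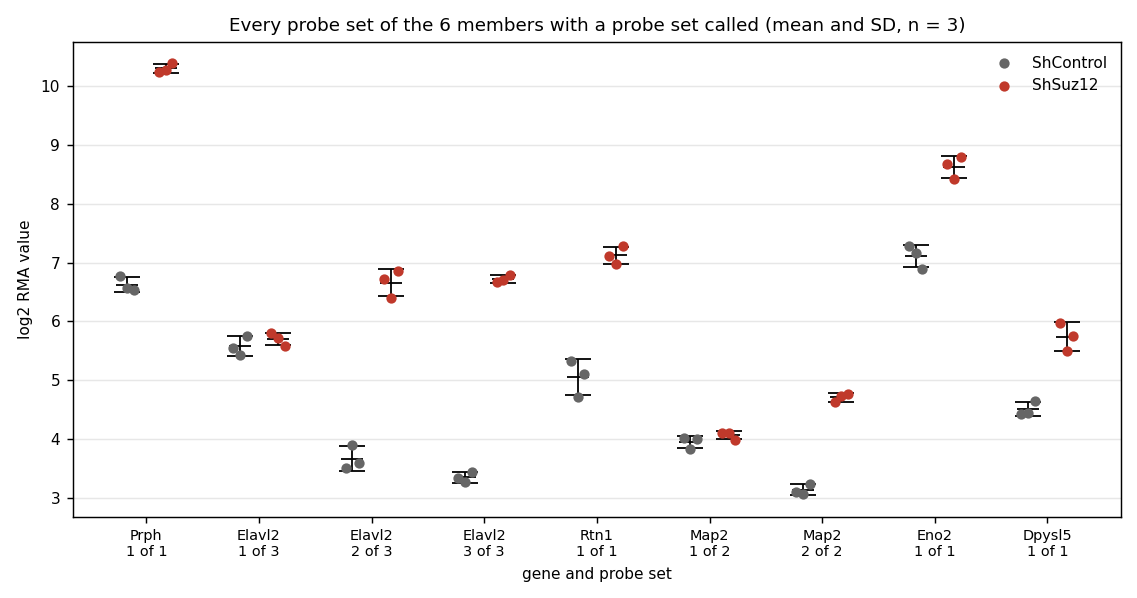
Log2 RMA values (y axis) of each of the 6 samples at the 7 called probe sets of Prph, Elavl2, Rtn1, Map2, Eno2 and Dpysl5, and at the brightest probe sets of Elavl2 and Map2, which were not called. The numbers under each gene rank its probe sets by brightness, and bars are the mean and SD of 3 samples. At each called probe set all ShSuz12 samples lie above all ShControl samples, with Prph going from about 6.6 to 10.3, and at the uncalled ones the groups overlap.

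Genes of synaptic vesicles and their release were the biggest group, and 0 of 13 were called. Of all genes 3.82% were called higher and 0.422% lower. At these shares, 0 called genes in a group of this size or smaller is not unusual. Syn1, which encodes synapsin I of the vesicle surface, had log2 values of 5.82, 5.72 and 5.48 in ShControl and of 6.02, 6.28 and 6.44 in ShSuz12 samples. The groups did not overlap, and Syn1 rose by 0.57 (standard error 0.12, adjusted p = 0.00757 from limma, and 0.0708 with the methods' adjusted t-test). Its other probe set had 0.15. Syt1, the calcium sensor of fast release, rose by 0.21 (adjusted p = 0.0153 from limma) and Syt4, a synaptotagmin that binds little calcium, fell by 0.29 (adjusted p = 0.0117). The rise of Syt1 was lost under median subtraction (adjusted p = 0.113 from limma) and without ShSuz12 replicate 3 (0.0579). The neuronal SNARE gene Snap25 had 4.26, 4.15 and 4.34 in ShControl and 4.14, 4.08 and 4.22 in ShSuz12 samples. These overlap, and the log2 fold change was -0.11 with a 95% interval from -0.26 to 0.05 (adjusted p = 0.284 from limma), although Snap25 passed as lower under median subtraction. The other SNARE genes Vamp1, Vamp2 and Stx1a had 0.03, -0.04 and 0.09. Complexins clamp the SNARE machinery, and their genes Cplx1 and Cplx2 had -0.03 and 0.02. The vesicle proteins Syn2, Syt11, Rab3a and Sv2a had 0.11, -0.04, 0.13 and 0.28, and did not pass. The group median was 0.03, and it was -0.07 under median subtraction and -0.04 under a second quantile normalization.

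Proteins that join the synapse or signal behind it changed little, and 0 of 5 were called. Nrxn3 and Nlgn1, genes of the adhesion partners neurexin and neuroligin, had log2 fold changes of 0.00 and -0.05. The kinase genes Camk2a and Camk2b, which relay calcium at the postsynapse, moved apart. Camk2a fell by 0.25 (adjusted p = 0.0347 from limma) and Camk2b rose by 0.30 (adjusted p = 0.0133). The fall of Camk2a was lost with the replicate number as a block (adjusted p = 0.0649 from limma) and with the methods' t-test after adjustment (0.103). It was also lost without ShControl replicate 2 (0.0849) or 3 (0.104) and without ShSuz12 replicate 2 (0.114) or 3 (0.0712). The rise of Camk2b was lost with the adjusted t-test (0.0586) and a further quantile normalization (0.0546). With the t-test unadjusted, both changes held. Dlg4, the gene of the scaffold PSD-95, had -0.15, -0.03 and -0.25 at the brightest, second and dimmest of its 4 probe sets, which did not pass, and rose by 0.42 at the other (adjusted p = 0.00304 from limma).

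Of the granin and neuropeptide genes, Scg2 passed. Scg2, which encodes secretogranin II of dense-core granules, had log2 values of 3.70, 3.41 and 3.38 in ShControl and of 4.38, 4.09 and 4.40 in ShSuz12 samples. The groups did not overlap, and Scg2 rose by 0.80 (standard error 0.11, adjusted p = 0.00101 from limma) with a 95% interval from 0.54 to 1.05. It went from percentile 5.78 to percentile 21.6 of the array and was thus dim in both groups. Scg3, a granin that binds granule membranes, had 0.31 (adjusted p = 0.0907 from limma), and Scg5, a chaperone of prohormone convertase, had 0.22 (adjusted p = 0.0529). The neuropeptide gene Npy had 0.15 (adjusted p = 0.0648 from limma). So 0 of 4 were called and the median was 0.26. With no fold limit 1 of the 4 was higher, against 17.1% of all genes.

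Of the neurotrophic genes, Bdnf and Gfra1 passed, and both were lower. Bdnf, the gene of brain-derived neurotrophic factor, had log2 values of 8.97, 9.00 and 9.00 in ShControl and of 8.52, 8.61 and 8.65 in ShSuz12 samples. All ShSuz12 samples were lower, and Bdnf fell by 0.40 (adjusted p = 0.000913 from limma), and its dimmer probe set had -0.17. Gfra1, the receptor subunit that binds GDNF, fell by 0.35 (adjusted p = 0.00172 from limma). Its other probe set had -0.27 and did not pass. Ntrk2, the gene of the Bdnf receptor TrkB, lay at percentile 77.8 of the array in ShControl cells with a log2 fold change of 0.00 and a 95% interval from -0.12 to 0.12. Ntrk3, the gene of TrkC, was dim, at percentile 17.9 in ShControl cells, and had -0.08. In this group 0 of 4 were called, with a median of -0.21. With no fold limit 2 of the 4 were lower, against 23.3% of all genes.

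The genes of myelin and membrane proteolipids had a median log2 fold change of 0.56, and 5 of 6 were higher with no fold limit, against 17.1% of all genes. A list of 16 other myelin and glial genes did not share this rise. Its median was -0.03, and with no fold limit 2 of the 16 were higher and 2 lower. The rise of Mbp, 1 of the 5 higher members, was lost under median subtraction. Rtn1, a reticulon of the endoplasmic reticulum in neuroendocrine cells and neurons, was the 1 that was called. Its log2 values were 5.32, 4.72 and 5.11 in ShControl and 7.12, 6.98 and 7.28 in ShSuz12 samples. All ShSuz12 samples were higher, and Rtn1 rose by 2.08, or 4.22-fold (standard error 0.15, adjusted p = 2.31e-05 from limma). Gpm6b, a proteolipid of the myelin PLP family, had 6.82, 7.01 and 6.92 against 7.86, 7.78 and 7.86 at 1 probe set, and 6.65, 6.81 and 6.70 against 7.67, 7.57 and 7.70 at the other. Its groups did not overlap at either, and it rose by 0.92 (standard error 0.06, adjusted p = 2.21e-05 from limma) and by 0.93 (adjusted p = 1.97e-05), just under 2-fold. Its relative Gpm6a had 0.18 (adjusted p = 0.0828 from limma).

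Ugt8, the enzyme that makes the galactolipid of myelin, was another gene that the study picked from these arrays. By semi-quantitative RT-PCR the paper also reports a rise of Ugt8. On the arrays Ugt8 had log2 values of 3.14, 3.44 and 3.28 in ShControl and of 4.10, 3.73 and 3.92 in ShSuz12 samples. The groups did not overlap, and Ugt8 rose by 0.63 (standard error 0.11, adjusted p = 0.00275 from limma), from percentile 2.74 to percentile 14.3 of the array, with -0.11 at its other probe set. Mag, an adhesion protein of the myelin sheath, rose by 0.50 (adjusted p = 0.00361 from limma). Mbp, the gene of myelin basic protein, shares its locus with transcripts made outside myelin, and rose by 0.22 (adjusted p = 0.0164 from limma) at a bright probe set, with 0.01 and -0.05 at the others. That rise was lost under median subtraction (adjusted p = 0.101 from limma) and without ShSuz12 replicate 2 (0.0595) or 3 (0.0607).

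**Figure D2:**
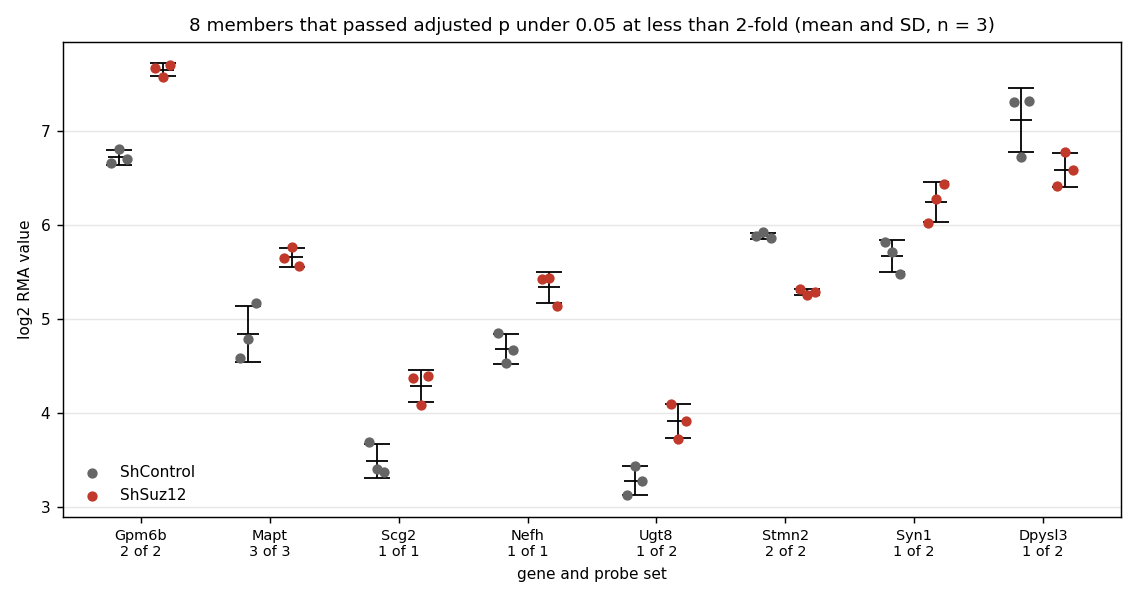
Log2 RMA values (y axis) of each of the 6 samples for the 8 uncalled genes with the largest changes among those past an adjusted p under 0.05, each at its probe set with the largest change (ranked by brightness under the gene), with the mean and SD of 3 samples. Stmn2 and Dpysl3 lie lower in ShSuz12 samples, the other genes higher, and Dpysl3 is the 1 gene whose groups overlap.

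The probe sets of a gene mostly moved alike. Of 32 members with several probe sets, 27 had log2 fold changes within 0.5 of each other. The exceptions were Elavl2, Map2, Mapt, Ugt8 and Dlg4, which include both genes that were called at a dimmer probe set. In 0 of the 32 genes did probe sets pass in opposite directions. The files do not say which transcripts the probe sets of these genes read, so their differences were not traced further.

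**Figure D3:**
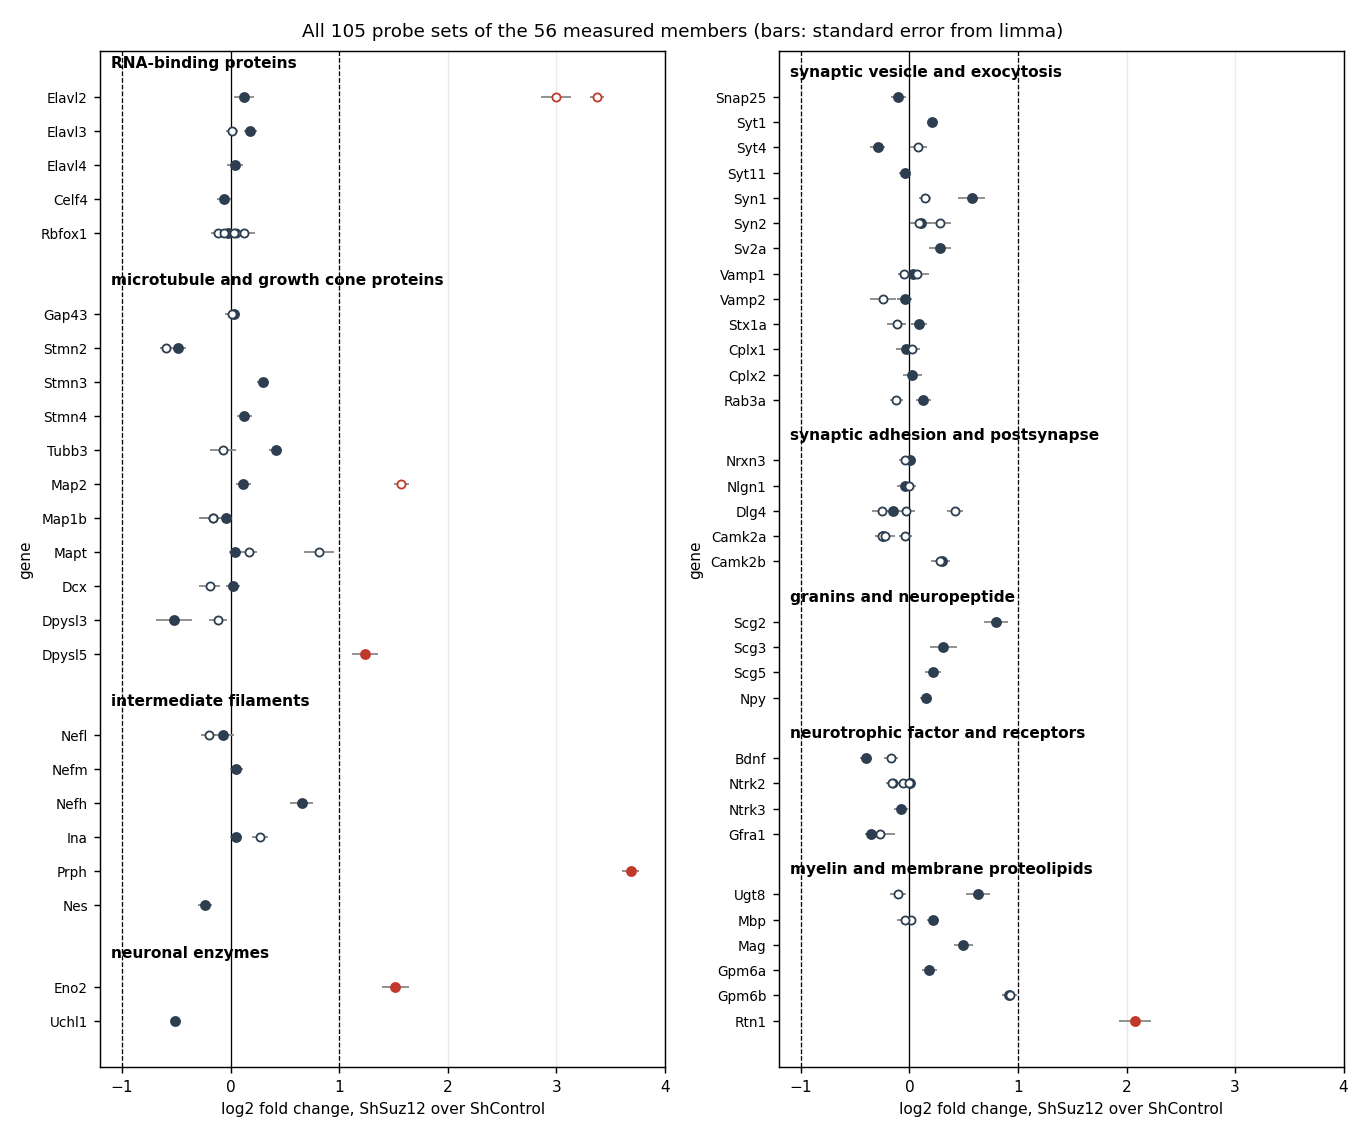
Log2 fold change of ShSuz12 over ShControl cells (x axis) with the standard error from limma (bars), for all 105 probe sets of the 56 measured genes (y axis), grouped by role. Filled points are the brightest probe set of a gene, open points the dimmer ones, red marks called probe sets and dashed lines 2-fold changes. Prph, Elavl2, Rtn1, Map2, Eno2 and Dpysl5 lie beyond the 2-fold line, all 6 myelin and membrane genes lie to the right of 0 at their brightest probe set, and most synaptic genes lie close to 0.

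RefSeq held promoters for 43 of the 56 measured genes. Their median GC content was 62.7%, against 55.3% for 19005 protein-coding promoters of the same length, and the median ratio of observed to expected CpG was 0.651 against 0.549. Among the 6 genes with a called probe set the ratio was 0.885 for Eno2, 0.820 for Dpysl5, 0.771 for Elavl2, 0.429 for Prph, 0.375 for Rtn1 and 0.120 for Map2. It was above 0.6 in 3 of these 6, in 21 of the 37 other members (56.8%) and in 46.5% of all promoters.

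Short motifs were searched by their letters on both strands. The left part of RE1, the element that REST binds, was searched as TTCAGCACC and found in the promoters of Elavl4 and Scg2, or 4.65% of 43 members against 0.410% of all promoters. Its right part, GGACAGC, was found in Rtn1, Scg2 and Tubb3, or 6.98% against 7.02%. The GC box GGGCGG was found in 65.1% of the members and 43.1% of all promoters. The TATA box letters TATAAA were found in Dcx, Elavl2, Map1b, Prph and Uchl1, or 11.6% against 13.1%, and the CRE TGACGTCA in Scg2, Syn1 and Vamp1, or 6.98% against 2.22%. The E box CACGTG was found in 0 members, and in 7.27% of all promoters. These matches describe the letters around an annotated start, which need not be the start used in IEC-6 cells.

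Genes related to the members were scored in the same way. Of 66 measured relatives, such as other tubulins, synaptotagmins, neurexins and neurotrophins, 4 were called higher (6.06%) and 0 lower. Of all genes 3.82% were called higher and 0.422% lower. Crmp1, a further collapsin response mediator protein beside Dpysl5, rose by 2.62 (standard error 0.12, adjusted p = 1.82e-06 from limma). The vesicle GTPase gene Rab3c rose by 1.61 (adjusted p = 1.08e-05 from limma), Dclk1, a doublecortin-like kinase, by 1.14 (adjusted p = 3.17e-06) and the synaptotagmin gene Syt12 by 1.11 (adjusted p = 0.000195). Among 23 genes of glutamate, GABA and acetylcholine signalling 1 was called, the vesicular glutamate transporter Slc17a6, which rose by 1.75 (adjusted p = 6.91e-06 from limma). Outside these lists, the study picked Ndn, Slc6a15, Calcr, Alx1 and Asic2 from these arrays as neuronal genes beside Elavl2 and Ugt8, and their log2 fold changes were 6.01, 4.81, 4.66, 2.96 and 0.61. The paper reports rises of these genes by semi-quantitative RT-PCR too. Of 16 enzymes and factors of peptide processing and granule release 0 were called, and 0 of 16 other myelin and glial genes. At the shares of all genes given above, counts of 0 in lists this short say little.

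The regulators of neuronal genes stayed within 2-fold in all 40 genes measured, where 3.82% of all genes were called higher and 0.422% lower. Rest had log2 fold changes of -0.05 (adjusted p = 0.683 from limma) and -0.09 (adjusted p = 0.431). Ptbp1, a splicing repressor that keeps neuronal exons out in other cells, fell by 0.24 (adjusted p = 0.0265 from limma). Isl1, a homeobox factor of motor and sensory neurons, rose by 0.61 (adjusted p = 0.000185 from limma).

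Cell type markers were set beside these changes. With 3.82% of all genes called higher and 0.422% lower, 0 called genes in such short lists says little. A list of 12 neuron markers, of which 11 are members, had 0 genes called by brightest probe set and a median of 0.08. Its summed linear level ran from 546 to 571 in the ShControl group and from 535 to 573 after depletion, which overlap, and 3 of the 12 were brighter than 40% of probe sets in either group. Enteroendocrine markers, the hormone-producing cells of the gut, had 0 of 10 called, with 0.99 for the hormone gene Cck. Their summed level was higher after depletion with no overlap, at least 296 in every sample against at most 246. Their median was 0.00, and 1 of the 10 was higher with no fold limit. Markers of Schwann cells and other glia had 0 of 7 called, and their summed level was also higher, 858 to 924 against 778 to 802. Mbp made up most of this sum, with mean log2 values of 9.19 in ShControl and 9.41 in ShSuz12 samples. The median of the glial list was -0.01. Leukocyte markers had 0 of 8 called and a lower summed level, 1135 to 1215 against 1355 to 1388. In the epithelial list Cdx2 rose by 1.56 (adjusted p = 4.75e-05 from limma) and Krt19 by 1.19 (adjusted p = 1.21e-05). The summed level of this list was 7091 to 7936 in the ShControl group and 4722 to 4886 after depletion. Its median was 0.00, and with no fold limit 2 of the 13 genes were higher, 2 were lower and 9 did not pass. Only 2 of the 13 passed the 60th percentile of the array in either group, so few bright genes carry the sum. Of 13 fibroblast and smooth muscle markers, 7 were higher and 2 lower with no fold limit, against 17.1% and 23.3% of all genes. Their summed level lay between 29650 and 32330 in the ShControl group and between 41840 and 43530 after depletion, with Lum, Col1a2, Col3a1, Pdgfrb and Dcn called higher by 1.32 to 2.46. The smooth muscle genes Acta2 and Tagln fell by 0.66 and 0.35 (adjusted p = 4.22e-05 and 0.00142 from limma). The part of these marker shifts in the changes of Prph, Elavl2, Rtn1, Map2, Eno2 and Dpysl5 was not tested.

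**Figure D4:**
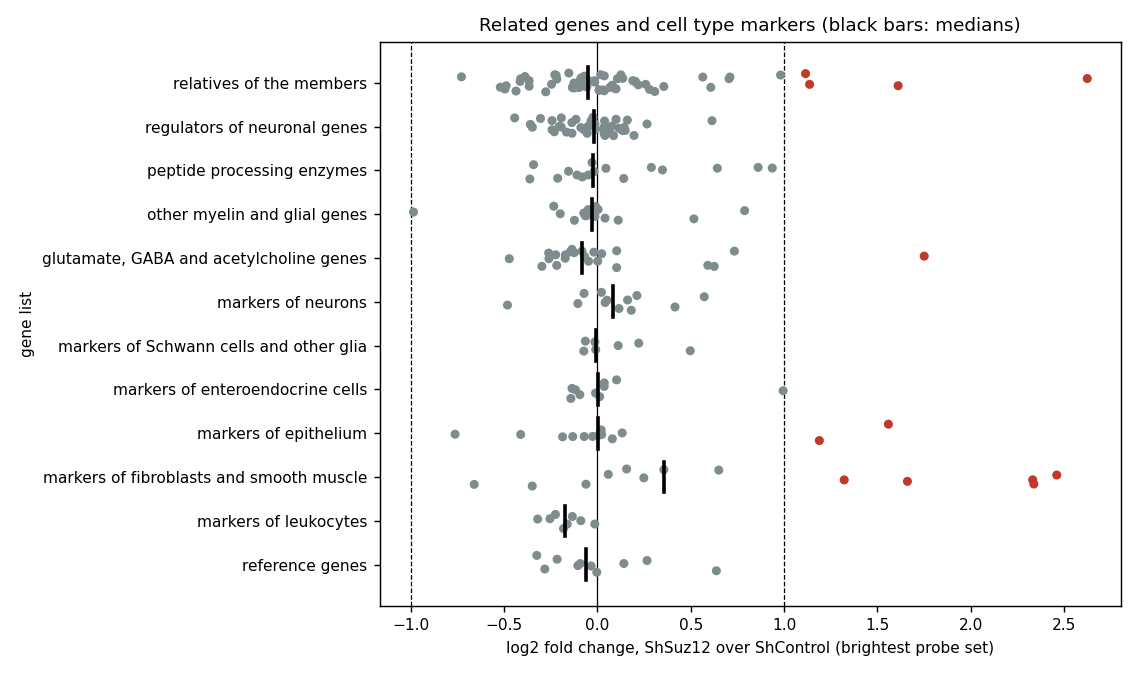
Log2 fold change of ShSuz12 over ShControl cells (x axis) at the brightest probe set of each gene in the related lists and cell type marker lists (y axis), with a black bar at each median, dashed lines at 2-fold and genes beyond them in red. The neuron markers gather around their median of 0.08, and the fibroblast and smooth muscle markers reach up to 2.46.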

How the data were processed

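Total RNA from both IEC-6 populations, ShControl and ShSuz12, was hybridized to Affymetrix rat RAE230 2.0 arrays, 3 per group. The deposited values are log2 probe set values that the authors made in FlexArray with RMA (background correction, normalization between arrays, summary per probe set). RMA compresses differences near background, so folds of dim probe sets may be understated. Scanner files and present calls were not used here.

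After 57 control probe sets were left out, a linear model with moderated variances (lmFit, then eBayes, limma 3.58.1 under R 4.3.3) compared the groups over 31042 probe sets, in both directions, with Benjamini-Hochberg adjustment over all of them. The fit was tested on simulated data. The p-values measure the spread between experiments with 1 selected population per group, and the number of arrays limits the precision. Symbols came from the platform annotation: 20826 probe sets had 1 symbol, 436 several and 9780 none listed. A gene was represented by the probe set with the highest mean over the 6 arrays. Summed levels of marker lists add the linear values of these probe sets.

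All members are named. Values in every sample are given for members with a called probe set and for the 8 largest changes among other members past an adjusted p under 0.05, with Uchl1, Snap25 and Bdnf added after their values were seen, and up to 4 called genes were named in each related list. The members, lists and rules were chosen with earlier results of these data known. Same-numbered replicates of the groups had correlations of 0.017, -0.042 and -0.064 between their deviations, so they were not taken as pairs. Alternatives were the methods' t-test, filters at the 40th and 60th percentile, other scalings, robust eBayes with a trend on intensity, the replicate number as a block, other fold limits and gene summaries, and leaving out each array. Promoter sequences came from RefSeq (GRCr8).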

Additional observations from a re-analysis of the deposited data

How the results depend on the processing

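The count of 4 member genes at least 2-fold higher, and of 7 member probe sets, came out the same under the methods' t-test, robust eBayes with a trend on intensity, a further quantile normalization, median subtraction and the replicate block, and without each array in turn (4 to 4 genes and 7 to 7 probe sets). The 7 probe sets were the same ones in each of these. Above the 40th percentile 6 of the 7 remained, without that of Map2. Above the 60th percentile, 3 member genes and 3 probe sets remained, with 0 in the microtubule group, and 557 probe sets were higher in all. Both filters keep a probe set that is bright in either group, so a rise can itself carry one past them. The called probe sets of Elavl2, Dpysl5 and Rtn1 averaged under percentile 40 in ShControl and over it in ShSuz12 samples. Those of Prph and Rtn1 crossed percentile 60 in the same way. Their staying is thus no separate support. With no fold limit 15 member genes were higher and 8 lower, at 1.5-fold 8 were higher and at 4-fold 2 were higher. With probe sets averaged per gene 5 genes were called, and with the largest change or any probe set 6. Member genes lower by 2-fold numbered 0 under every alternative that kept a fold limit of 2. With the replicate number as a block, 962 probe sets were higher and 123 lower over the array, against 961 and 123 without it. Leaving out an array gave 943 to 974 higher and 119 to 130 lower. Median subtraction gave 194 lower, and moved the share of all genes lower with no fold limit from 23.3% to 41.7%. Among members it gave 13 higher and 11 lower: Mbp and Syt1 no longer passed as higher, and Dlg4, Ntrk3 and Snap25 passed as lower. Under the block, and also under the methods' adjusted t-test, Camk2a, Dpysl3 and Nes no longer passed as lower, and the adjusted t-test also lost Camk2b and Syn1. Unadjusted, that t-test lost Dpysl3 and kept the others. Without 1 array at a time, 13 to 18 members were higher and 6 were lower. The 29 of 56 members that did not pass the filter at the 40th percentile were dim. How close their signal lay to background was not measured, which limits what their changes can show.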
